A study of Mus musculus with 6 samples.

Results

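The genes described here are the mouse chemokines that signal through the receptor CXCR2, Cxcl1, Cxcl2, Cxcl3, Cxcl5 and Ppbp, together with Cxcr2 itself and its relative Cxcr1. They were taken by name from a table of 35434 genes, and 7 of 7 names were found, 5 ligands and 2 receptors. The table came from RNA-seq of skin lesions of mice with psoriasis into which regulatory T cells (Tregs) had been transferred. In the Lenv-Treg group (3 libraries) the transferred cells had been treated with lenvatinib, a drug that inhibits receptor tyrosine kinases. In the Ctrl-Treg group (3 libraries) they were control Tregs, so the disease and a cell transfer were common to both groups. The strain, age and sex of the mice, the way the disease was set off, the source and number of the cells and the time of sampling are absent from the labels. Whether each library of a group stands for its own mouse is also not stated, so the p-values reflect the spread among the libraries, part of which could be technical.

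Chemokines that carry the residues glutamate, leucine and arginine before their first cysteines bind CXCR2 and draw neutrophils into tissue. In skin they are made by keratinocytes, fibroblasts, endothelial cells and myeloid cells after signals such as IL-1 and IL-17, through NF-kappaB, and their mRNAs are short-lived. CXCR2 sits on neutrophils and couples to inhibitory G proteins, while Ppbp is best known as a protein stored in platelets. Neutrophil collections in the epidermis are a hallmark of psoriatic lesions.

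The ligand genes sit in 1 cluster on mouse chromosome 5, and the sequences before the starts of Cxcl1, Cxcl2 and Cxcl3 were compared. Promoter sequences were available for 6 of the 7 genes, all but Cxcl5 (RefSeq, build GRCm38.p6), and the 250 bases before the start were searched on both strands. The 150 bases that end at the start are shown for Cxcl1, Cxcl2 and Cxcl3, whose levels differed most in absolute terms among the ligands, and for Ppbp as a contrast. Capitals mark matches to the NF-kappaB consensus and to a TATA-like element, spelled ATAAAA, on either strand.
Cxcl1, chr5:90891095-90891244, plus strand: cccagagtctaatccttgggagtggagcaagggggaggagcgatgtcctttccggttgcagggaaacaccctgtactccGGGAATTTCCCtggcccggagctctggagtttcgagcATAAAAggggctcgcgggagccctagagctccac
Cxcl2, chr5:90903749-90903898, plus strand: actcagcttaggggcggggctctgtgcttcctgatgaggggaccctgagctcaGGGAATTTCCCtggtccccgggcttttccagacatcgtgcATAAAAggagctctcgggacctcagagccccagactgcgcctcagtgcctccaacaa
Cxcl3, chr5:90785951-90786100, plus strand: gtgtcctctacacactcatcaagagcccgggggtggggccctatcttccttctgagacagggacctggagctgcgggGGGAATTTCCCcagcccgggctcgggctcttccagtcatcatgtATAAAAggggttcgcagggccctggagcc
Ppbp, chr5:90768368-90768517, plus strand: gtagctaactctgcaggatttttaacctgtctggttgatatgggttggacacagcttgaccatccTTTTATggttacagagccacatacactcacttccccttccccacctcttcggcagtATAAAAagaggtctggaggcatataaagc

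Cxcl1, Cxcl2 and Cxcl3 each held the same NF-kappaB match, GGGAATTTCC, and none of the other 3 promoters searched (Ppbp, Cxcr2 and Cxcr1) held a match. Counted back from the start of the gene, it lay at -71 to -62 in Cxcl1, -97 to -88 in Cxcl2 and -73 to -64 in Cxcl3. In each of these genes a match on the opposite strand, GGGAAATTCC, overlapped it and lay 1 base nearer the start. The consensus was found in 7.25% of 32851 promoters of the same length and the exact run GGGAATTTCC in 0.0852%. ATAAAA, present in 17.0% of promoters, lay downstream of the NF-kappaB match, beginning at -34 in Cxcl1, -57 in Cxcl2 and -29 in Cxcl3. Promoters with both the consensus and ATAAAA made up 0.74% of all. Ppbp had ATAAAA at -29 and, on the opposite strand, at -85, and was the only one of the 6 genes with a match to the AP-1 motif TGANTCA (at -204, found in 6.75% of promoters). The C/EBP motif TTGCNNAA, found in 9.56% of promoters, was in none of the 6. Aligned over 250 bases, Cxcl2 and Cxcl3 were identical at 73.9% of 207 aligned bases, Cxcl1 and Cxcl2 at 71.9% of 178 and Cxcl1 and Cxcl3 at 71.6% of 201. These matches describe letters in a window and not bound sites.

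Values are FPKM, the fragments of a gene divided by its length and by the depth of the library, as deposited by the authors, so levels can be compared between genes. Depth, recovered from the steps between low values, was 38704536 to 40248462 assigned reads per library, a ratio of 1.04. The skin markers Krt5, Krt14 and Col1a1 were abundant in every library, at mean FPKM of 304 to 4428 in the Lenv-Treg and 769 to 1134 in the Ctrl-Treg group. Another of the 9 skin markers checked, Flg2, was less abundant. It was at 0.208 to 1.27 FPKM in the Lenv-Treg libraries, against 14.1 to 19.3 FPKM in the Ctrl-Treg libraries. The group labels could not be checked, since no transcript tags the transferred cells. The test was limma on log2(FPKM + 1) over the 13945 genes with at least 0.5 FPKM in at least 3 of 6 libraries, with Benjamini-Hochberg adjustment at 0.05, and a difference is the Lenv-Treg mean less the Ctrl-Treg mean on that log2 scale. Over all tested genes 41.7% passed, 11.0% higher and 30.8% lower in the Lenv-Treg group, with a median difference of -0.17.

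All 7 genes were higher in every Lenv-Treg library than in any Ctrl-Treg library, a separation in this direction that 14.4% of tested genes showed. The 5 ligands and Cxcr2 passed the filter, and each of these 6 passed the test in the same direction. The 5 ligands met the filter with 0 to 2 Ctrl-Treg libraries at 0.5 FPKM or more, so their passing it rested on the group where they were high, and the count of 6 is not support in itself. Cxcl1, Cxcl2, Cxcl3 and Cxcr2 differed by at least 2 on the log2 scale, as 1.24% of tested genes did in this direction. Cxcr1 was below the filter. In level, Cxcl2 and Cxcl3 stood apart from the rest. These are bulk samples, in which a higher level from more cells of a type cannot be told apart from more RNA per cell.

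**Figure D1:**
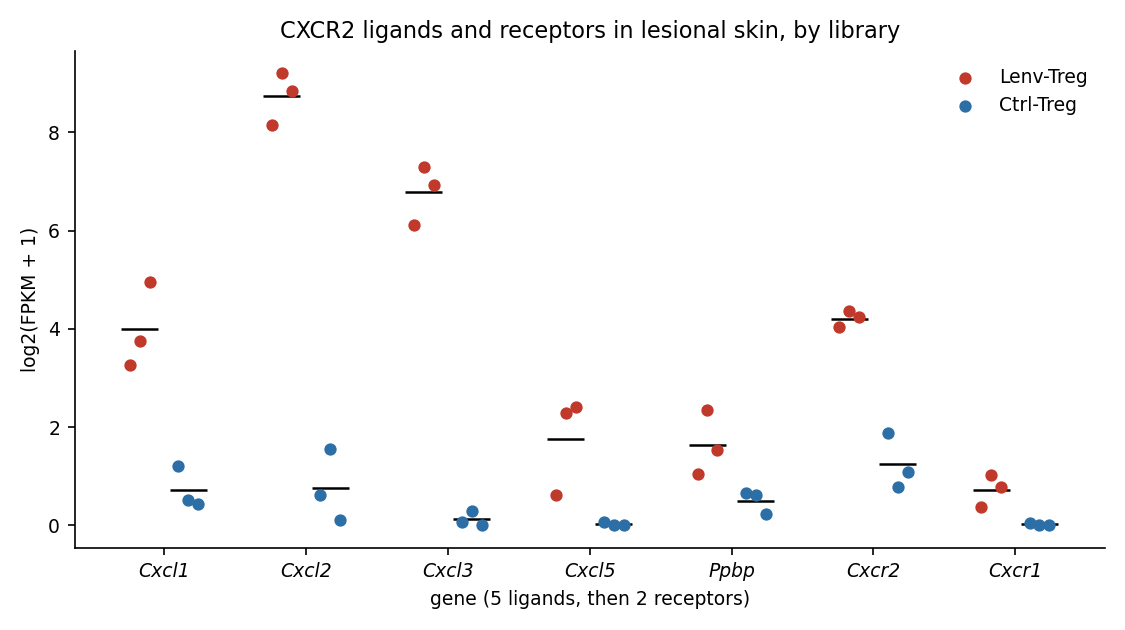
Level of each gene as log2(FPKM + 1) in each of the 6 libraries. Points are libraries, bars are group means, Lenv-Treg left of Ctrl-Treg within each gene; Cxcl2 and Cxcl3 show the widest gaps, and for each of the 7 genes no Ctrl-Treg point reaches a Lenv-Treg point.

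Cxcl2, also called MIP-2, is a strong attractant of mouse neutrophils made by macrophages, mast cells and epithelium. It was at 285, 588 and 461 FPKM in the Lenv-Treg libraries, against 0.528, 1.93 and 0.0716 FPKM in the Ctrl-Treg libraries. In reads these were 12322, 25650 and 19772 in the Lenv-Treg libraries, against 23, 82 and 3 in the Ctrl-Treg libraries. Each Lenv-Treg library was at 285 FPKM or more, while the Ctrl-Treg libraries varied more and stayed near or below 2 FPKM. The means were 445 ± 153 FPKM in the Lenv-Treg group and 0.844 ± 0.970 FPKM in the Ctrl-Treg group (SD, n = 3 each), a ratio of 527. Of the 108 Ctrl-Treg reads, 82 came from replicate 2, and without that library the ratio of means was 1484. The difference was 7.98 (SE 0.39, limma adjusted p = 2.91e-05).

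Cxcl3 is the nearest relative of Cxcl2 in sequence and also a neutrophil attractant. It was at 68.6, 157 and 121 FPKM in the Lenv-Treg libraries, against 0.0488, 0.226 and 0 FPKM in the Ctrl-Treg libraries, with 2791, 6437 and 4876 reads in the Lenv-Treg libraries, against 2, 9 and 0 reads in the Ctrl-Treg libraries. The gene was thus at the edge of detection in Ctrl-Treg skin. Means were 116 ± 44.5 FPKM in the Lenv-Treg group and 0.0915 ± 0.119 FPKM in the Ctrl-Treg group (SD, n = 3 each). With 14104 reads in the Lenv-Treg group and 11 in the Ctrl-Treg group, the ratio per unit of depth was 1264, with an exact 95% interval of 706 to 2532 that covers counting error only. Without Ctrl-Treg replicate 2, which held 9 of the 11 reads, the ratio of means was 4734, against 1262 with it. The difference was 6.66 (SE 0.28, limma adjusted p = 1.65e-05). Of the 50-base words in the transcripts of Cxcl2, 5.84% also occur in those of Cxcl3, and 3.51% of the words of Cxcl3 occur in Cxcl2, so a small part of their reads could fit either gene. The handling of such reads by the authors is not stated. The other 5 genes shared no such word with another of the 7.

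Cxcl1, also called KC, is made by keratinocytes and stromal cells. It was at 8.62, 12.4 and 30.0 FPKM in the Lenv-Treg libraries, against 1.3, 0.428 and 0.352 FPKM in the Ctrl-Treg libraries. One library in each group stood above its other two, replicate 3 among the Lenv-Treg and replicate 1 among the Ctrl-Treg libraries. The means of 17.0 ± 11.4 FPKM in the Lenv-Treg and 0.693 ± 0.527 FPKM in the Ctrl-Treg group (SD, n = 3 each) gave a ratio of 24.5. This ratio was 15.2 when Lenv-Treg replicate 3 was left out and 43.6 when Ctrl-Treg replicate 1 was. The difference was 3.27 (SE 0.42, limma adjusted p = 0.000968).

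Cxcl5, also called LIX in mice, is made mainly by epithelial cells. It was at 0.529, 3.87 and 4.28 FPKM in the Lenv-Treg libraries, against 0.045, 0 and 0 FPKM in the Ctrl-Treg libraries. In reads this was 35, 258 and 281 in the Lenv-Treg libraries, against 3, 0 and 0 in the Ctrl-Treg libraries. Lenv-Treg replicate 1 was well below its group and still above all the Ctrl-Treg libraries. The ratio of reads per unit of depth was 189, with an exact 95% counting interval of 64.2 to 917. Means were 2.89 ± 2.06 FPKM in the Lenv-Treg group and 0.015 ± 0.026 FPKM in the Ctrl-Treg group (SD, n = 3 each), and the difference was 1.74 (SE 0.43, limma adjusted p = 0.0156). This call was lost without Lenv-Treg replicate 2 (adjusted p = 0.0562), without Lenv-Treg replicate 3 (0.052) and with no filter on low values (0.0538), and at a filter of 1 FPKM the gene was not tested.

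Ppbp encodes the precursor of NAP-2, a platelet chemokine. It showed the smallest ratio of the 5 ligands, at 1.06, 4.06 and 1.91 FPKM in the Lenv-Treg libraries, against 0.574, 0.542 and 0.167 FPKM in the Ctrl-Treg libraries. The groups did not overlap, but Lenv-Treg replicate 1 lay nearer to the Ctrl-Treg libraries than to Lenv-Treg replicate 2. Means were 2.34 ± 1.55 FPKM in the Lenv-Treg group and 0.428 ± 0.226 FPKM in the Ctrl-Treg group (SD, n = 3 each), a ratio of 5.48 that became 3.48 without Lenv-Treg replicate 2. The difference was 1.14 (SE 0.30, limma adjusted p = 0.0211), and the call was lost when Lenv-Treg replicate 3 (adjusted p = 0.0519) or Ctrl-Treg replicate 3 (0.0589) was left out and with no filter on low values (0.0656).
Of 11 other platelet and megakaryocyte markers only 4 passed the filter, and their levels are given beside Ppbp without a test of their part in it. Pf4, which lies next to Ppbp and is made by platelets and by some macrophages, was at 284 ± 39.2 FPKM in the Lenv-Treg and 139 ± 14.4 FPKM in the Ctrl-Treg group (SD, n = 3 each), a difference of 1.02 (limma adjusted p = 0.00157). Gp1bb, a subunit of the receptor for von Willebrand factor, was at 4.01 ± 0.749 FPKM in the Lenv-Treg and 1.71 ± 0.0605 FPKM in the Ctrl-Treg group, a difference of 0.88 (limma adjusted p = 0.00133). The integrin genes Itga2b and Itgb3 did not pass (differences -0.10 and -0.17, limma adjusted p = 0.537 and 0.183), and the second fell on values rescaled to TPM (-0.44, adjusted p = 0.0205). The summed FPKM of the 11 markers was 250.5 to 327 in the Lenv-Treg and 129.9 to 159 in the Ctrl-Treg libraries, nearly all of it Pf4. The defining platelet genes were near 0, with Gp6 at 3 reads in the Lenv-Treg and 0 in the Ctrl-Treg group, and Gp9 at 0.12 ± 0.118 FPKM in the Lenv-Treg and 0.039 ± 0.0173 FPKM in the Ctrl-Treg group.

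Added together, the ligands were more than 2 orders of magnitude higher in Lenv-Treg skin, where Cxcl2 made up most of them. Their summed level was 363, 766 and 618 FPKM in the Lenv-Treg libraries, against 2.5, 3.13 and 0.59 FPKM in the Ctrl-Treg libraries. Cxcl2 was 78.3%, 76.8% and 74.6% of the sum in the Lenv-Treg libraries, against 21.1%, 61.8% and 12.1% in the Ctrl-Treg libraries. The share of Cxcl2 was thus nearly even across the Lenv-Treg libraries although their sums differed, as was that of Cxcl3 (18.9%, 20.5% and 19.6%). The smaller shares varied more in these libraries. They were 2.37%, 1.62% and 4.85% for Cxcl1, 0.145%, 0.505% and 0.693% for Cxcl5, and 0.292%, 0.53% and 0.309% for Ppbp. In the Ctrl-Treg libraries the make-up rested on 103, 130 and 23 ligand reads and varied widely. Cxcl3 was 19.7% ± 0.823 of the sum in the Lenv-Treg and 3.06% ± 3.73 in the Ctrl-Treg group, and Cxcl1 was 2.95% ± 1.69 in the Lenv-Treg and 41.8% ± 24.6 in the Ctrl-Treg group (SD, n = 3 each). Ppbp, with 0.377% ± 0.133 in the Lenv-Treg and 22.9% ± 5.48 in the Ctrl-Treg group, lost share while its own level was higher. Cxcl5 was 0.448% ± 0.278 in the Lenv-Treg and 0.601% ± 1.04 in the Ctrl-Treg group. An exact permutation test of 3 against 3 libraries cannot go below p = 0.1, so shares were not tested. The ratio of Cxcl2 to Cxcl3 was 4.15, 3.75 and 3.81 in the Lenv-Treg libraries, against 10.8 and 8.56 in the Ctrl-Treg libraries where Cxcl3 had reads. The ratio of Cxcl2 to Cxcl1 was less even, at 33.0, 47.4 and 15.4 in the Lenv-Treg libraries, against 0.406, 4.52 and 0.203 in the Ctrl-Treg libraries.

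**Figure D2:**
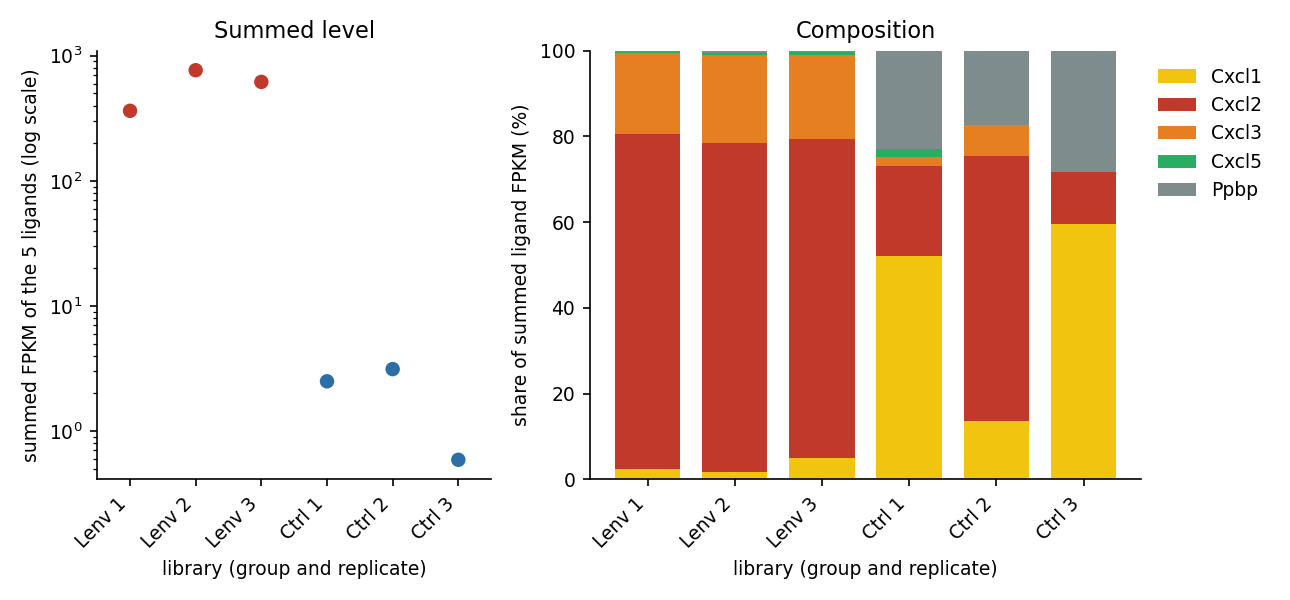
Left, summed FPKM of the 5 ligands in each library on a log axis. Right, share of each ligand in that sum in each library, in percent. Cxcl2 fills 74.6% to 78.3% of the Lenv-Treg bars and 12.1% to 61.8% of the Ctrl-Treg bars, and the sums are 363 to 766 FPKM in the Lenv-Treg and 0.59 to 3.13 FPKM in the Ctrl-Treg libraries.

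Cxcr2 encodes the receptor that all of these ligands share. It was at 15.3, 19.5 and 17.9 FPKM in the Lenv-Treg libraries, against 2.69, 0.712 and 1.11 FPKM in the Ctrl-Treg libraries. Its Lenv-Treg values were the most even of the 7 genes, and Ctrl-Treg replicate 1 was the highest of its group. Means were 17.6 ± 2.13 FPKM in the Lenv-Treg and 1.5 ± 1.05 FPKM in the Ctrl-Treg group (SD, n = 3 each), a ratio of 11.7, or 19.3 without Ctrl-Treg replicate 1. The difference was 2.96 (SE 0.26, limma adjusted p = 0.000228).
Cxcr1, a second receptor for some of these chemokines, was far rarer, at 0.299, 1.03 and 0.706 FPKM in the Lenv-Treg libraries, against 0.0289, 0.00743 and 0.00752 FPKM in the Ctrl-Treg libraries. These were 41, 142 and 96 reads in the Lenv-Treg libraries, against 4, 1 and 1 in the Ctrl-Treg libraries. The groups did not overlap, and the ratio of reads per unit of depth was 45.8, with an exact 95% counting interval of 20.8 to 126. The ratio of means was 46.3, or 90.6 without Ctrl-Treg replicate 1. The difference of 0.70 had an exact two-sided permutation p of 0.1, the smallest that 3 against 3 libraries can give. Without the filter it passed limma (adjusted p = 0.0294). Cxcr2 exceeded Cxcr1 by 51.2, 19.0 and 25.4 times in the Lenv-Treg libraries, against 93.0, 95.7 and 147 times in the Ctrl-Treg libraries, the last on 1 to 4 Cxcr1 reads each.

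Within Lenv-Treg skin the order of mean levels was Cxcl2, Cxcl3, Cxcr2, Cxcl1, Cxcl5, Ppbp and Cxcr1. Cxcl2 was 3.85 times Cxcl3, and Cxcl3 6.58 times Cxcr2, without overlap of their ranges. Cxcr2 and Cxcl1 overlapped, with Cxcr2 the higher in 2 of 3 libraries, and so did Cxcl5 and Ppbp. In Ctrl-Treg skin the order of means was Cxcr2, Cxcl2, Cxcl1, Ppbp, Cxcl3, Cxcl5 and Cxcr1, and each gene overlapped its neighbour. Cxcr2 led in Ctrl-Treg replicates 1 and 3 and Cxcl2 in replicate 2.

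Because Cxcr2 is a neutrophil receptor, neutrophil markers were read beside it. Of 12 neutrophil genes, 9 passed the filter and were called higher in the Lenv-Treg group, beside 11.0% of all tested genes. Of these 9, Ly6g, Mmp8, Ngp, Trem1 and Cd177 had no Ctrl-Treg library at 0.5 FPKM and passed the filter through the Lenv-Treg group where they were high, so the count is a description and not support. The call on Il1r2, a decoy receptor for IL-1, was lost without Lenv-Treg replicate 2 or 3, without Ctrl-Treg replicate 2 or 3, with no filter, with a replicate block and on TPM (adjusted p = 0.0566 to 0.197). The summed level of the 12 genes was 250.4 to 473 FPKM in the Lenv-Treg and 28.9 to 43.8 FPKM in the Ctrl-Treg libraries, and their part in the level of Cxcr2 was not tested. Most of the Ctrl-Treg sum was Il1r2, at 41.4 ± 4.76 FPKM in the Lenv-Treg and 29.0 ± 5.55 FPKM in the Ctrl-Treg group (SD, n = 3 each). Ly6g, which marks mature mouse neutrophils, was at 4.22 ± 1.23 FPKM in the Lenv-Treg and 0.0632 ± 0.0312 FPKM in the Ctrl-Treg group (SD, n = 3 each), a difference of 2.27 (limma adjusted p = 0.000139). Of the granule enzymes of immature cells, Mpo, Elane and Ctsg were near 0. Mpo had 3 reads in the Lenv-Treg and 2 in the Ctrl-Treg group. Elane had 23 reads in the Lenv-Treg and 10 in the Ctrl-Treg group, and Ctsg 25 in the Lenv-Treg and 30 in the Ctrl-Treg group. Prtn3, another such enzyme, was not near 0. It was at 3.65 ± 1.18 FPKM in the Lenv-Treg and 1.5 ± 0.26 FPKM in the Ctrl-Treg group (SD, n = 3 each). Its difference was 0.87 (limma adjusted p = 0.00791). In a wider list of 20 neutrophil genes, 15 of 16 tested were called higher (13 on TPM), beside 11.0% of all tested genes. Of the 16, 6 had no Ctrl-Treg library at 0.5 FPKM, so this count too is a description. Camp did not pass (difference 0.93, limma adjusted p = 0.181). It was called without Ctrl-Treg replicate 2 (0.0445) and with a replicate block (0.0177). Ltf was below the filter. In the wider list, S100a8 and S100a9, calcium-binding proteins of neutrophils and inflamed epidermis, averaged 21891 ± 3885 and 24392 ± 4081 FPKM in the Lenv-Treg group, against 46.9 ± 32.9 and 56.3 ± 37.9 FPKM in the Ctrl-Treg group. These were ratios of 467 for S100a8 and 433 for S100a9, or 746 and 699 without Ctrl-Treg replicate 1, with limma adjusted p = 4.05e-05 and 2.91e-05. Csf3r, the receptor for granulocyte colony-stimulating factor, was nearly level with Cxcr2 in Lenv-Treg skin. The ratio of Cxcr2 to Csf3r was 0.986, 0.866 and 0.862 in the Lenv-Treg libraries, against 0.642, 0.342 and 0.432 in the Ctrl-Treg libraries.

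Marker lists of other cell types that can make the ligands were read in the same way. Their counts stand beside 11.0% higher and 30.8% lower over all tested genes. Macrophage markers summed to 4069 to 4574 FPKM in the Lenv-Treg and 2533 to 3233 FPKM in the Ctrl-Treg libraries, with 8 of 15 higher and 1 lower (0 lower without Lenv-Treg replicate 2 or 3). Keratinocyte markers summed to 10082 to 11622 FPKM in the Lenv-Treg and 4381 to 6040.2 FPKM in the Ctrl-Treg libraries, with 5 of 12 higher and 3 lower. The keratinocyte counts were 7 higher and 2 lower after median-ratio scaling and 5 and 4 on TPM, and 2 to 3 were lower without 1 library. Of the macrophage markers, 6 to 11 were higher without 1 library, 11 after median-ratio scaling and 7 on TPM. Fibroblast markers summed to 2635 to 3719 FPKM in the Lenv-Treg and 4923 to 6118 FPKM in the Ctrl-Treg libraries. Of 10, 1 was higher and 5 lower, the higher one called also without Ctrl-Treg replicate 1 but with no other library left out. The fibroblast counts were 1 higher and 4 lower after median-ratio scaling and 0 and 6 on TPM. The lower count was 4 without Lenv-Treg replicate 2 or 3 or Ctrl-Treg replicate 1 or 2. Endothelial markers summed to 173 to 223 FPKM in the Lenv-Treg and 106 to 167 FPKM in the Ctrl-Treg libraries, with 2 of 10 higher. That count was 0 without Lenv-Treg replicate 1 or 3 and on TPM, 1 without Lenv-Treg replicate 2, Ctrl-Treg replicate 2 or Ctrl-Treg replicate 3, and 5 after median-ratio scaling. Sums on this scale are dominated by a few abundant genes, and the part of each cell type in the ligand levels was not tested.

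Other receptors that guide neutrophils were also mostly higher. Of 10 tested, 8 rose and 0 fell, beside 11.0% and 30.8% of all tested genes, and their median difference was 1.84 beside -0.17 over all. C5ar2 alone of these passed the filter with no Ctrl-Treg library at 0.5 FPKM. Ccr1, a receptor for CC chemokines, was at 30.1 ± 7.56 FPKM in the Lenv-Treg and 2.48 ± 0.431 FPKM in the Ctrl-Treg group, a difference of 3.14 (limma adjusted p = 6.21e-05). Csf3r was at 19.6 ± 3.66 FPKM in the Lenv-Treg and 2.95 ± 1.1 FPKM in the Ctrl-Treg group, a difference of 2.40 (limma adjusted p = 0.000228). C5ar1, the receptor for complement C5a, was at 21.9 ± 0.943 FPKM in the Lenv-Treg and 5.21 ± 0.827 FPKM in the Ctrl-Treg group, a difference of 1.89 (limma adjusted p = 5.36e-05). Each of these receptors is also carried by monocytes or macrophages. Fpr2, a formyl peptide receptor, was at 35.4 ± 5.98 FPKM in the Lenv-Treg and 10.8 ± 7.01 FPKM in the Ctrl-Treg group, a difference of 1.83 (limma adjusted p = 0.0162). That call was lost without Lenv-Treg replicate 2 (adjusted p = 0.0527) or 3 (0.056) and with no filter (0.0553). Cxcr4, which retains neutrophils in bone marrow, had a difference of 0.89 (limma adjusted p = 0.00269). Ptafr and P2ry2 did not pass (adjusted p = 0.0644 and 0.0755), but both were called after median-ratio scaling (0.0232 and 0.0308), after quantile normalization (0.0344 and 0.0224), with a replicate block (0.0364 and 0.0419) and without Ctrl-Treg replicate 2 (0.0423 and 0.00542), and P2ry2 also with array weights (0.047).

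Genes for the proteins that carry or end the signal of CXCR2 inside the cell mostly did not pass the test. Of 23 tested, 4 rose and 1 fell, or 21.7% called beside 41.7% of all tested genes, and the median difference was -0.00. The G protein subunit gene Gnai2 was at 218 ± 20.1 FPKM in the Lenv-Treg and 219 ± 27.3 FPKM in the Ctrl-Treg group, a difference of -0.01 (limma adjusted p = 0.976). Gnb1 was at 117 ± 8.46 FPKM in the Lenv-Treg and 117 ± 7.55 FPKM in the Ctrl-Treg group (adjusted p = 0.981), though on values rescaled to TPM it fell by 0.29 (adjusted p = 0.025). Both subunits serve many receptors in many cell types. The tyrosine kinase gene Fgr, expressed in myeloid cells, was at 10.3 ± 1.22 FPKM in the Lenv-Treg and 3.23 ± 1.31 FPKM in the Ctrl-Treg group, a difference of 1.46 (limma adjusted p = 0.00199). Rgs2, which ends G protein signals, had a difference of 0.64 (limma adjusted p = 0.00631). Rgs18, the gene that fell (difference -0.43, limma adjusted p = 0.00965), was not called after median-ratio scaling (-0.25, adjusted p = 0.0722) or quantile normalization (-0.22, adjusted p = 0.11). The counts depended on the scaling, with 6 higher and 0 lower after median-ratio scaling and 2 higher and 7 lower on TPM. They also depended on single libraries, with 2 higher without Lenv-Treg replicate 2, Lenv-Treg replicate 3, Ctrl-Treg replicate 2 or Ctrl-Treg replicate 3, and 2 lower without Ctrl-Treg replicate 2.

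Of 13 tested cytokines known to induce the ligands, 12 were called higher and 0 lower in the Lenv-Treg group, with a median difference of 1.98. Il17a, Il17c, Il17f, Il22 and Csf3 had no Ctrl-Treg library at 0.5 FPKM and passed the filter through the Lenv-Treg group where they were high, so neither count nor median is support, beside 11.0% higher over all tested genes. Il1b, the main IL-1 of myeloid cells, was at 313 ± 105 FPKM in the Lenv-Treg and 4.78 ± 1.39 FPKM in the Ctrl-Treg group, a ratio of 65.5 and a difference of 5.72 (limma adjusted p = 3.06e-05). Il36a, an epidermal relative of IL-1, was at 240.1 ± 94.5 FPKM in the Lenv-Treg and 53.4 ± 17.6 FPKM in the Ctrl-Treg group, a difference of 2.12 (limma adjusted p = 0.00327). Il1a was at 19.7 ± 2.25 FPKM in the Lenv-Treg and 7.08 ± 1.14 FPKM in the Ctrl-Treg group, a difference of 1.36 (limma adjusted p = 0.000345). The IL-17 genes were low in level and nearly absent from Ctrl-Treg skin. Il17a was at 1.79 ± 1.38 FPKM in the Lenv-Treg and 0.0288 ± 0.0118 FPKM in the Ctrl-Treg group (4 reads), a ratio of 62.1, or 34.8 without Lenv-Treg replicate 3 (difference 1.33, limma adjusted p = 0.0105). Il17f was at 4.64 ± 2.63 FPKM in the Lenv-Treg and 0.0939 ± 0.0954 FPKM in the Ctrl-Treg group, a ratio of 49.4, or 118 without Ctrl-Treg replicate 1 (difference 2.27, limma adjusted p = 0.000832). Il17c, which comes from epithelium, was at 1.28 ± 0.229 FPKM in the Lenv-Treg and 0.0362 ± 0.0207 FPKM in the Ctrl-Treg group (difference 1.14, limma adjusted p = 0.00021). Tnf had a difference of 1.31 (limma adjusted p = 0.00146). Csf3, which drives neutrophil production, was at 3.23 ± 1.54 FPKM in the Lenv-Treg and 0.0174 ± 0.00715 FPKM in the Ctrl-Treg group (4 reads), a ratio of 186 and a difference of 1.98 (limma adjusted p = 0.00128). The tested gene that did not pass was Il36b (0.79, adjusted p = 0.131), though it did without Lenv-Treg replicate 3 (adjusted p = 0.0303). Csf2 was below the filter, at 23 reads in the Lenv-Treg and 14 in the Ctrl-Treg group.

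**Figure D3:**
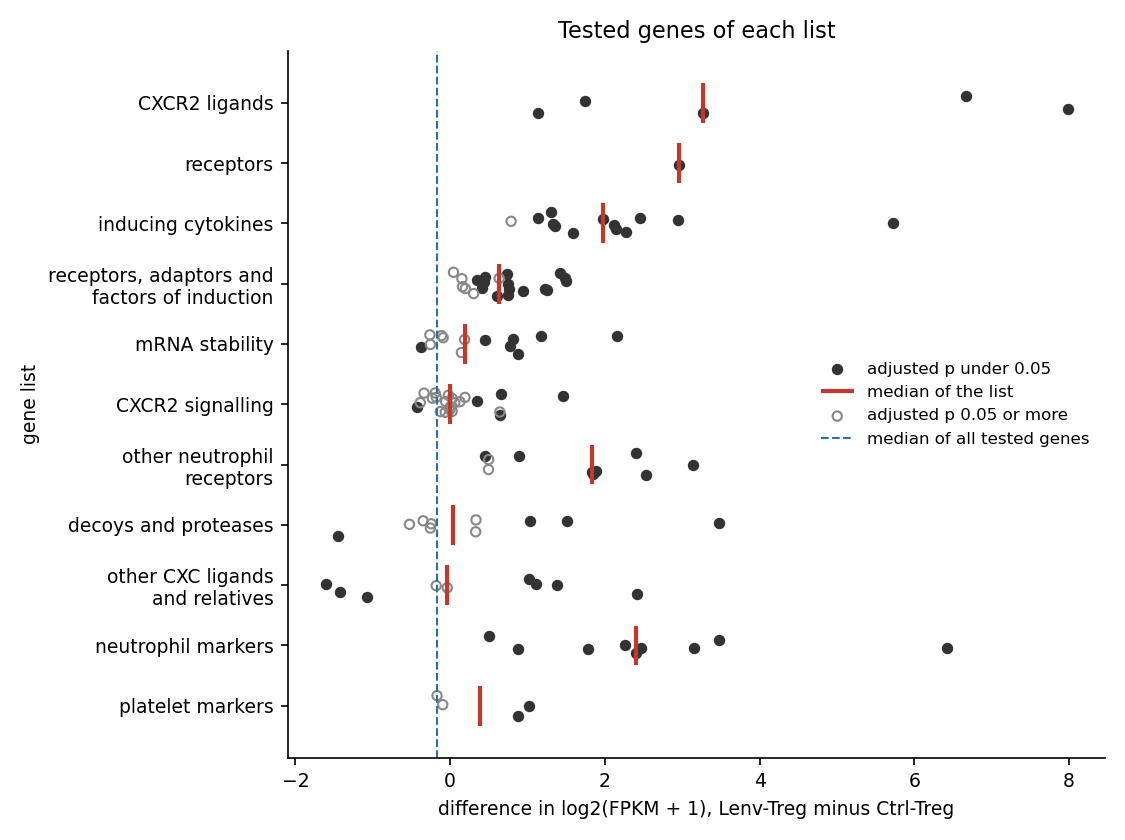
Difference in log2(FPKM + 1), Lenv-Treg minus Ctrl-Treg, of each tested gene in each list, with filled points for adjusted p under 0.05, a bar at the median of the list and a dashed line at -0.17, the median of all tested genes. Inducing cytokines (median 1.98) and neutrophil receptors (median 1.84) lie to the right, and the genes of CXCR2 signalling centre on -0.00.

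The receptors, adaptors and transcription factors through which those cytokines act differed by less. Of 21 tested, 15 rose and 0 fell, beside 11.0% and 30.8% of all tested genes, with a median difference of 0.63, and 10 rose on TPM and 18 after median-ratio scaling. Nfkbiz, an IL-17-induced co-activator of NF-kappaB targets, was at 33.3 ± 5.59 FPKM in the Lenv-Treg and 11.9 ± 2.38 FPKM in the Ctrl-Treg group, a difference of 1.42 (limma adjusted p = 0.000807). Cebpd, a C/EBP factor, was at 36.7 ± 5.11 FPKM in the Lenv-Treg and 12.6 ± 3.45 FPKM in the Ctrl-Treg group, a difference of 1.50 (limma adjusted p = 0.00101). The AP-1 gene Junb was at 213 ± 33.0 FPKM in the Lenv-Treg and 90.1 ± 22.2 FPKM in the Ctrl-Treg group, a difference of 1.25 (limma adjusted p = 0.0023). These 3 genes are themselves early responders to inflammatory signals. Fos was at 287 ± 91.3 FPKM in the Lenv-Treg and 122 ± 44.0 FPKM in the Ctrl-Treg group, a difference of 1.23 (limma adjusted p = 0.019). The call on Fos was lost without Lenv-Treg replicate 1 (adjusted p = 0.0585) or 3 (0.0662), without Ctrl-Treg replicate 2 (0.0504) or 3 (0.0511), with no filter (0.0587) and after quantile normalization (0.0508). Among the NF-kappaB subunits, Nfkb2 rose by 0.34, a call lost without Lenv-Treg replicate 2 (adjusted p = 0.0629) or Ctrl-Treg replicate 3 (0.0595) and on TPM (0.15, adjusted p = 0.309), while Rela (0.15, adjusted p = 0.215), Relb (0.16, adjusted p = 0.267) and Nfkb1 (0.30, adjusted p = 0.0657) did not pass. These 3 calls also moved with the setting. Nfkb1 was called after median-ratio scaling (adjusted p = 0.015), after quantile normalization (0.0445), with array weights (0.0266) and without Lenv-Treg replicate 3 (0.0401). Rela was called after median-ratio scaling (0.0321) and Relb after quantile normalization (0.0252), while on TPM their differences were -0.13 and -0.05 (adjusted p = 0.305 and 0.74).

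Among regulators of mRNA decay, the share called in either direction was near that of all genes, but more of the calls were higher. Of 13 tested, 6 rose and 1 fell, beside 11.0% and 30.8% of all tested genes. In either direction 53.8% were called, beside 41.7% of all tested genes, with a median difference of 0.19. The counts were 5 and 4 on TPM and 6 and 0 after median-ratio scaling. Zc3h12a, an RNase that degrades cytokine mRNAs, was at 52.3 ± 4.64 FPKM in the Lenv-Treg and 11.4 ± 3.92 FPKM in the Ctrl-Treg group, a difference of 2.15 (limma adjusted p = 0.000477). Zfp36, also called tristetraprolin, which destabilises AU-rich mRNAs, was at 162 ± 37.1 FPKM in the Lenv-Treg and 71.9 ± 25.2 FPKM in the Ctrl-Treg group, a difference of 1.18 (limma adjusted p = 0.0106). Arid5a, which stabilises some cytokine mRNAs, had a difference of 0.88 (limma adjusted p = 0.000811). The list thus held destabilising and stabilising genes that rose. Zfp36l1 had a difference of 0.46 (limma adjusted p = 0.0217), which was lost without Lenv-Treg replicate 1 (adjusted p = 0.0604), Lenv-Treg replicate 3 (0.0688) or Ctrl-Treg replicate 3 (0.0644) and on TPM (0.17, adjusted p = 0.288). Khsrp, which also promotes decay, was the gene that fell (-0.38, limma adjusted p = 0.0138), a call lost after median-ratio scaling (-0.18, adjusted p = 0.17).

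Atypical receptors that bind chemokines without G protein signalling, and proteases that cut them, were read together. Of 10 tested, 3 rose and 1 fell, beside 11.0% and 30.8% of all tested genes. The share called in either direction was near the 41.7% of all tested genes. Their median difference was 0.04, and 2 fell on TPM, without Lenv-Treg replicate 1 or without Ctrl-Treg replicate 2. Mmp8 alone of these passed the filter with no Ctrl-Treg library at 0.5 FPKM. Mmp8, the neutrophil collagenase, was at 13.3 ± 3.42 FPKM in the Lenv-Treg and 0.264 ± 0.192 FPKM in the Ctrl-Treg group, a ratio of 50.2, or 76.5 without Ctrl-Treg replicate 1 (difference 3.48, limma adjusted p = 4.13e-05). Ccrl2, which presents chemerin, had a difference of 1.04 (limma adjusted p = 0.00491). Ackr1, the vascular receptor that carries CXCR2 ligands across endothelium, was at 20.5 ± 1.82 FPKM in the Lenv-Treg and 16.8 ± 6.16 FPKM in the Ctrl-Treg group, which overlapped (difference 0.33, limma adjusted p = 0.314). Ackr4, a scavenger of the CC chemokines CCL19 and CCL21, was at 1.54 ± 0.599 FPKM in the Lenv-Treg and 5.83 ± 0.439 FPKM in the Ctrl-Treg group (difference -1.45, limma adjusted p = 0.0006). Ackr2 (-0.24, adjusted p = 0.261, and 0.02 after quantile normalization), Ackr3 (0.33, adjusted p = 0.187) and Mmp2 (-0.25, adjusted p = 0.358) did not pass, though Ackr3 did without Ctrl-Treg replicate 2 (adjusted p = 0.0378).

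A list of other chemokines held CXC genes apart from the 5 ligands, with Cx3cl1 and Xcl1 from the neighbouring CX3C and XC families. Of 9 tested, 4 rose and 3 fell, or 77.8% called beside 41.7% of all tested genes. The 4 that rose, Cxcl12, Cxcl13, Cxcl16 and Pf4, are CXC genes, and the 3 that fell were Cxcl9, Cxcl10 and Xcl1. The median difference of -0.04 was that of Cx3cl1. Cxcl13, the B cell attractant, was at 275 ± 48.1 FPKM in the Lenv-Treg and 54.6 ± 24.8 FPKM in the Ctrl-Treg group (difference 2.41, limma adjusted p = 0.00155). Cxcl12, the ligand of CXCR4, was at 105 ± 16.6 FPKM in the Lenv-Treg and 39.3 ± 3.02 FPKM in the Ctrl-Treg group (difference 1.39, limma adjusted p = 0.000359). Cxcl9, an interferon-gamma-induced attractant of T cells, was at 0.877 ± 0.212 FPKM in the Lenv-Treg and 4.74 ± 0.764 FPKM in the Ctrl-Treg group (difference -1.61, limma adjusted p = 0.000183). Cxcl10, another CXCR3 ligand, also fell (-1.42, limma adjusted p = 0.00855), as did Xcl1 (-1.07, limma adjusted p = 0.000818). Cxcl14 was at 31.3 ± 14.9 FPKM in the Lenv-Treg and 34.0 ± 7.87 FPKM in the Ctrl-Treg group and did not pass (adjusted p = 0.668). Cxcl9 and Cxcl10 were thus lower in the group in which the CXCR2 ligands were higher.

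The ligand genes are neighbours, and the RefSeq gene order of the region (build GRCm38.p6, protein-coding genes) runs Rassf6, Cxcl5, Ppbp, Pf4, Cxcl3, Cxcl15, Cxcl1, Cxcl2, Mthfd2l, Epgn. From Cxcl5 to Cxcl2 each tested gene was higher in Lenv-Treg skin, with differences from 1.02 for Pf4 to 7.98 for Cxcl2. Cxcl15, best known from lung, had 1 read in the Lenv-Treg and 0 in the Ctrl-Treg group, and was the one chemokine gene of the cluster that was not tested. Pf4 and Ppbp lie side by side, yet Ppbp was the far rarer mRNA of the pair in each group. On one side Rassf6 was lower, at 1.28 ± 0.449 FPKM in the Lenv-Treg and 3.38 ± 0.711 FPKM in the Ctrl-Treg group (difference -0.95, limma adjusted p = 0.00545). On the other side Mthfd2l, next to Cxcl2, was at 2.47 ± 0.476 FPKM in the Lenv-Treg and 2.69 ± 0.655 FPKM in the Ctrl-Treg group and did not pass (-0.08, adjusted p = 0.714). Epgn, an epidermal growth factor family ligand, was at 20.9 ± 6.95 FPKM in the Lenv-Treg and 4.76 ± 1.55 FPKM in the Ctrl-Treg group (1.91, limma adjusted p = 0.00116).

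**Figure D4:**
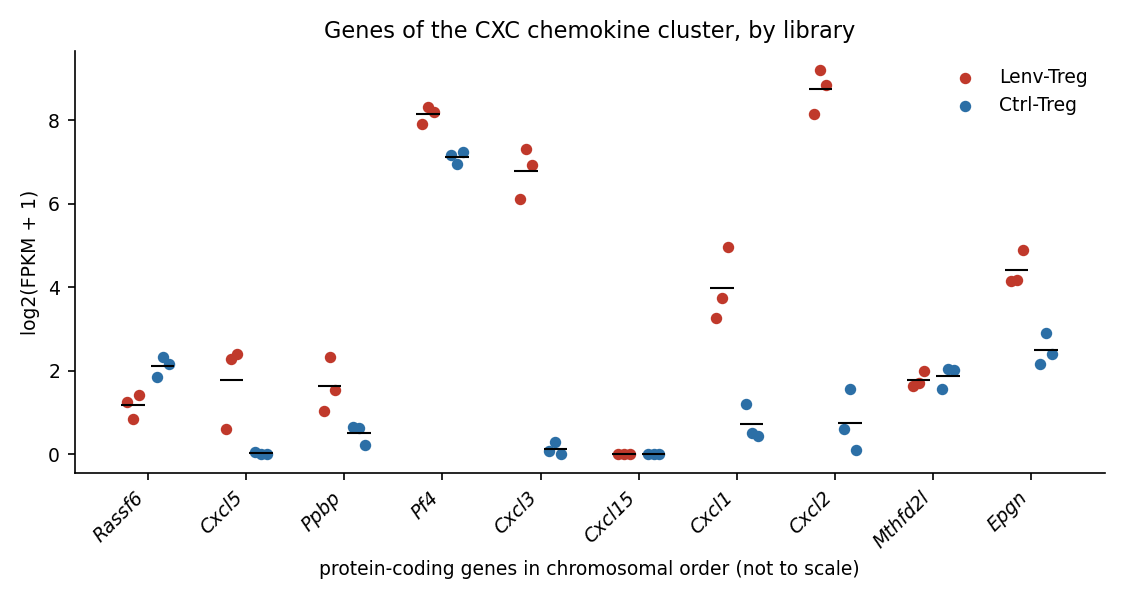
Level as log2(FPKM + 1) of the protein-coding genes in the order in which they lie on chromosome 5, in each library, with group means as bars and Lenv-Treg left of Ctrl-Treg. Cxcl2 and Cxcl3 are separated widely, Cxcl15 sits near 0 in both groups and Mthfd2l, next to Cxcl2, overlaps.

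Genes whose pattern over the 6 libraries was nearest to that of Cxcl1, Cxcl2 and Cxcr2 were found by the root mean square difference of log2(FPKM + 1) after centring each gene, among 13253 named genes. The 6 libraries share the split into groups, so these distances describe likeness and were not tested. For Cxcl1 the nearest genes were Il19 (0.26), Sirpd (0.30), Osm (0.38), Cd14 (0.41) and Mcemp1 (0.43), beside a median distance of 1.82. Il19 and Osm are cytokines, and Cd14 is a co-receptor of myeloid cells. Il19 had the same highest library in each group as Cxcl1, at 18.6 ± 14.1 FPKM in the Lenv-Treg and 0.264 ± 0.402 FPKM in the Ctrl-Treg group (SD, n = 3 each). For Cxcl2 they were Defb3 (0.75), Sprr2b (0.77), Cstdc4 (0.80), Sprr2i (0.89) and Sprr2f (0.90), beside a median of 4.11, and Cxcl3 was as near at 0.74. Defb3 encodes an epithelial defensin and the Sprr2 genes cornified envelope proteins, whose near-identical copies make their counts uncertain. For Cxcr2 they were Slc2a1 (0.16), Prss27 (0.20), Klk13 (0.22), Lce3c (0.22) and Teddm3 (0.22), beside a median of 1.62. Slc2a1 is a glucose transporter, Prss27 and Klk13 are proteases of squamous epithelium, and Lce3c is a late cornified envelope gene. Among the 7 genes themselves, Cxcl1 and Cxcr2 lay 0.51 apart, Cxcl1 and Cxcl2 2.45 and Cxcl2 and Cxcr2 2.60.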

How the data were processed

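Total RNA from skin was sequenced after library preparation with the VAHTS Universal V10 kit, per the labels' protocols. The authors deposited 1 table of FPKM for 6 samples, in a genome build that the submitters' processing notes give as GRCm39. For aligner, counter and annotation: not given in the sources used here. Groups came from the treatment labels, and 0 columns belonged to other samples. Whole reads and depth were recovered from FPKM steps (tolerance 0.005 reads plus 1.5e-07 per read) and came out whole for 13945 of 13945 tested genes. Differences were tested with limma 3.58.1 in R 4.3.3 (trended eBayes) on log2(FPKM + 1), without covariates, two-sided, on genes with at least 0.5 FPKM in at least 3 libraries. This scale understates changes of low genes. The fit was tested on simulated data. Intervals on reads cover counting error only. No 2 libraries agreed within sampling noise. The 7 genes and the gene lists were chosen with earlier results of these data known. Named genes were the 7, a set of single genes and, per list, up to 4 genes (the 2 with the highest mean and the 2 others with the smallest p). Xcl1, Cxcl10, Rgs18, Khsrp, Cxcl16, Cx3cl1, Il36b, Csf2, Il22, C5ar2, Il1r2, Ptafr, P2ry2, the NF-kappaB subunits, the neighbours in the cluster, the platelet, skin and neutrophil markers were named after their values were seen. Alternatives were other pseudocounts, filters, scalings, moderation settings, array weights, a replicate block, voom on recovered reads and leaving out each library.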

Additional observations from a re-analysis of the deposited data

How the results depend on the processing

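Over all alternatives the differences stayed positive for each of the 7 genes, within 2.79 to 4.62 for Cxcl1, 7.66 to 9.90 for Cxcl2, 6.40 to 10.9 for Cxcl3 and 2.73 to 3.75 for Cxcr2, whose calls held in every alternative run. The ranges were wider for the rarer genes, 1.43 to 7.14 for Cxcl5 (4.29 at pseudocount 0.1, 7.14 in voom), 0.79 to 2.39 for Ppbp (2.13 at pseudocount 0.1, 2.39 in voom) and 0.55 to 5.23 for Cxcr1. Leaving out 1 library gave 1.43 to 2.32 for Cxcl5 and 0.79 to 1.44 for Ppbp. With no filter both calls were lost, at 1.74 for Cxcl5 (limma adjusted p = 0.0538) and 1.14 for Ppbp (0.0656), where 25667 genes were tested. Cxcr1 passed with no filter (0.70, adjusted p = 0.0294) and in voom on genes with at least 10 reads (5.23, adjusted p = 0.00324), an alternative chosen after seeing the data. Of 7 genes, 5 were called with no filter, 5 at a filter of 1 FPKM, 4 to 6 without 1 library and 7 in that voom fit. Over all genes, 1532 were higher and 4289 lower. Median-ratio scaling gave 2417 higher and 2417 lower (median difference of all genes 0), TPM 947 higher and 7970 lower (-0.44), and quantile normalization 2232 higher and 2304 lower (-0.01). Without 1 library, 1152 to 1447 genes were higher and 2780 to 3900 lower, the fewest without Lenv-Treg replicate 2. The cause of these shifts was not tested. Same-numbered samples deviated together with r of 0.20, -0.01 and 0.33, so the replicate numbers were not taken as pairs; with a replicate block 1637 genes were higher and 4270 lower, and 6 of the 7 genes were still called. Cxcl5, Cxcl3 and Cxcr1 in Ctrl-Treg skin rest on 3, 11 and 6 reads, which limits the precision of their ratios.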
